A study of Mus musculus with 12 samples.

Results

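Muscle fibers of old mice that stained abnormally with the Ca2+ dye Fluo-4 were compared with fibers of young mice across all genes. The comparison used 8 of the 12 RNA samples in the series, 4 labelled aged abnormal and 4 labelled young, chosen by their labels alone. The study worked with C57BL/6J mice of 26–28 months for the aged and 3–4 months for the young groups, and described the abnormal fibers in aged males. The methods give no transgene or drug treatment for these groups, and do not say whether the young fibers used for RNA were stained with Fluo-4. Extensor digitorum longus (EDL) muscles were digested with collagenase, single fibers were picked, and aged fibers were split by their Fluo-4 fluorescence into abnormal and normal. The abnormal samples therefore differed from the young samples both in age and in staining class, which cannot be told apart by this contrast. The methods name the Jackson Laboratory for C57BL/6J mice and the National Center for Geriatrics and Gerontology for aged mice. Mouse source may thus go with age, and sorting by fluorescence is described for aged fibers only, which cannot be told apart here either. The 4 Fluo-4 normal samples of the same age are given beside this contrast where they bear on a result. How many fibers or mice went into a sample is not stated in the sources used here, so p-values measure the spread between these samples, which may be partly technical.

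A fast muscle fiber stores Ca2+ in the sarcoplasmic reticulum (SR), a specialized form of the endoplasmic reticulum (ER), and releases it to start contraction. Membrane and secreted proteins enter the ER through the translocon, are folded and glycosylated there, and leave in coated vesicles. Mitochondria supply ATP, and creatine kinases carry its energy to the myofibrils. In aged mouse fast fibers, stacks of SR tubules known as tubular aggregates can form, mainly in males.

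Gene levels were the deposited TPM, a unit that corrects for transcript length and sums to 1000000 in each sample, so the read depth is unknown. The summed level of 12 fast-fiber markers was 229220 to 232605 TPM in the young and 235420 to 267272 TPM in the abnormal samples, and all 5 adipocyte markers were listed at 0 in these 8 samples. Satellite cell markers summed to 68 to 78 TPM in young and 81.6 to 108 TPM in abnormal samples. *Itga7*, the most abundant of these 8, was the only one that rose. Tenocyte markers summed to 7.52 to 15.2 and 14.7 to 20.2 TPM, and *Scx*, the most abundant of these 4, was the only one that rose. The part of these cells in the results was not tested. Of 14426 genes tested on the log2(TPM + 1) scale with limma, 1227 (8.51%) differed between abnormal and young fibers at a Benjamini-Hochberg adjusted p under 0.05. Of these, 879 (6.09% of the genes tested) were higher and 348 (2.41%) were lower in the abnormal fibers. Among the 9456 genes of at least 1 TPM in some group the shares were larger, with 806 passing as higher and 319 as lower (11.9% in either direction). Genes that passed are referred to below as having risen or fallen, and counts of list members are to be read beside these shares. Whether or not they passed, 9574 of the genes tested were higher in the abnormal fibers and 4680 were lower. The abnormal and young samples did not overlap for 1158 of the 1227 genes, against 2337 (16.2%) of all genes tested. By the ratio of group means, 316 of the genes that rose and 89 of those that fell changed at least 2-fold. The scale shifts all genes together: the median log2 change of the 9456 genes of at least 1 TPM was 0.14, and 0.02 after rescaling with TMM-type factors, which gave 1171 genes (8.12%), 548 (3.8%) higher and 623 (4.32%) lower. Medians of gene lists are therefore to be read beside 0.14, and some are also given relative to it. Leaving out a single sample lowered the 1227 genes to 576 without young replicate 4, 700 without abnormal replicate 2, 706 without young replicate 1, 744 without abnormal replicate 4 and 808 without young replicate 3. The share of *Myh4* (type IIb myosin heavy chain) was 0.831% to 1.04% of the TPM in young and 1.08% to 1.56% in abnormal samples, and with this share as a covariate (the *Myh4* covariate) 627 genes passed. In Fluo-4 normal samples the share was 0.625% to 0.981%. The abnormal samples thus overlapped neither other group in this share, and the fit cannot tell the share and the group difference apart. Calls lost with the *Myh4* covariate are to be read with this limit, and its part in the results was not tested further.

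**Figure D1:**
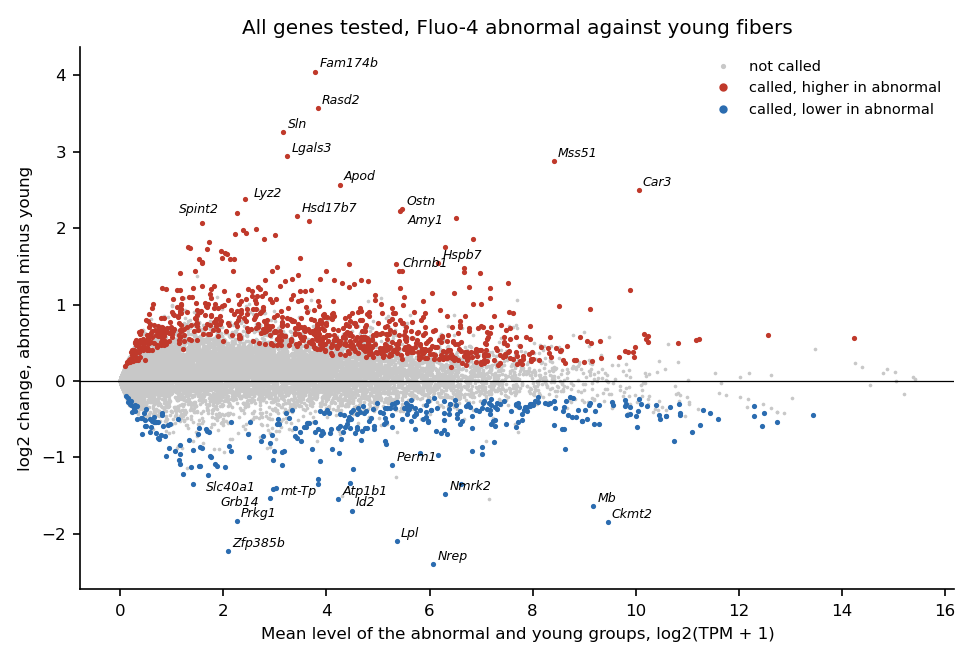
Log2 change (abnormal minus young) of each gene tested against its mean level in the abnormal and young samples on a log2(TPM + 1) scale. Red and blue points are the 879 genes that rose and the 348 that fell, and the named genes include the 12 largest rises and the 12 largest falls.

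The largest rises were taken among the 632 genes that rose without overlap and reached a mean of 5 TPM, and the 12 at the top were *Fam174b*, *Rasd2*, *Sln*, *Lgals3*, *Mss51*, *Apod*, *Car3*, *Lyz2*, *Ostn*, *Amy1*, *Spint2* and *Hsd17b7*. All 12 passed under each of the 22 alternative settings. Against the Fluo-4 normal fibers they split. *Fam174b*, *Rasd2*, *Sln*, *Mss51* and *Hsd17b7* were also higher in abnormal than in normal aged fibers, whereas the other 7 were not shown to differ between the aged groups (adjusted p = 0.09 to 0.77) and were all higher in normal aged than in young fibers. For comparison, 9.35% of all genes tested differed between abnormal and normal aged fibers (7.36% higher and 1.99% lower in abnormal fibers), and 1.15% between normal aged and young fibers (0.561% higher and 0.589% lower in normal aged fibers).

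*Mss51*, on chromosome 14 of GRCm39 from 20532926 to 20547001, encodes a muscle protein of the mitochondria that is linked to oxidative metabolism. It was at 121, 91.4, 64.6 and 52.4 TPM in the young samples and at 445, 779, 631 and 529 TPM in the abnormal samples. The lowest abnormal sample was thus far above the highest young one, and the mean rose 7.23-fold (log2 change 2.88, standard error 0.245, adjusted p = 3.1e-05 from limma). The normal aged fibers were at 58.9 to 99.1 TPM, within the range of the young fibers, and abnormal exceeded normal fibers by 2.91 on the log2 scale (adjusted p = 0.00018). *Rasd2* encodes a small GTPase of the Ras family (chromosome 8, 75940572 to 75950874). The gene was listed at 0.71, 1.42, 2.06 and 0.741 TPM in young and at 19.2, 29.8, 29.8 and 22.3 TPM in abnormal fibers. Normal aged fibers lay between these groups at 3.29 to 5.05 TPM, and the abnormal fibers were above them (log2 change 2.31, adjusted p = 0.00018).

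*Fam174b* showed the largest change of all genes tested on the log2(TPM + 1) scale. It rose from 0.447 ± 0.135 TPM (SD, n = 4) in young to 25.1 ± 12.5 TPM in abnormal fibers (log2 change 4.05, standard error 0.33, adjusted p = 1.8e-05). Normal aged fibers lay between at 4.31 to 12.4 TPM, and each step passed (adjusted p = 0.0025 for normal against young and 0.013 for abnormal against normal). *Sln* encodes sarcolipin, a small SR membrane protein that inhibits the Ca2+ pump SERCA. Its young samples were at 0.597, 0.117, 0.438 and 0.282 TPM and its abnormal samples at 3.75, 35.1, 10.3 and 13.1 TPM, so every abnormal sample was above every young one but with a wide spread (log2 change 3.26, standard error 0.50, adjusted p = 0.0017). The difference of *Sln* from normal aged fibers (log2 1.72, adjusted p = 0.046) was not called with TMM-type factors (adjusted p = 0.074). *Hsd17b7*, an enzyme of cholesterol and sex steroid synthesis, rose from 2.88 ± 0.552 to 16.8 ± 5.13 TPM (SD, n = 4; adjusted p = 9.3e-05), with 3.58 to 4.77 TPM in normal aged fibers.

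*Car3*, carbonic anhydrase III, a cytosolic enzyme abundant in slow muscle and fat, was the most abundant of the 12. Its levels were 451, 214, 345 and 296 TPM in young and 1746, 2005, 1877 and 1568 TPM in abnormal samples (log2 change 2.50, standard error 0.17, adjusted p = 6.3e-06). Normal aged fibers reached 1139 to 1452 TPM, below all abnormal samples, but this step was small (log2 0.50, adjusted p = 0.09, and 0.046 with aged samples of the same number paired). *Amy1*, a starch-degrading amylase, rose from 13.7 ± 1.70 to 70.1 ± 21.3 TPM (SD, n = 4) and *Ostn*, the secreted muscle peptide musclin or osteocrin, from 13.7 ± 4.27 to 72.7 ± 30.5 TPM. The remaining 4 genes were low in young fibers. *Apod*, the lipid carrier apolipoprotein D, went from 4.24 to 32.1 TPM, *Lgals3*, the galactoside-binding lectin galectin-3, from 1.13 to 15.8 TPM, *Spint2*, a Kunitz-type inhibitor of serine proteases, from 0.709 to 6.92 TPM and *Lyz2*, the lysozyme of myeloid cells, from 0.743 to 8.01 TPM (group means). *Lyz2* is itself one of 9 immune markers, whose summed level was 1.87 to 3.02 TPM in young, 9.53 to 16.3 TPM in abnormal and 5.81 to 16.2 TPM in normal aged samples. Of these markers 7 were tested and *Lyz2* and *Cd3e* rose (*Cd3e* with adjusted p = 0.014, and 0.051 without young replicate 1), while *Itgam* was at 0 in all 8 samples and the leukocyte gene *Ptprc* was listed at 0 in young and at a mean of 0.091 TPM in abnormal samples. The part of other cells in the rises of *Lyz2*, *Lgals3* and *Apod* was not tested.

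**Figure D2:**
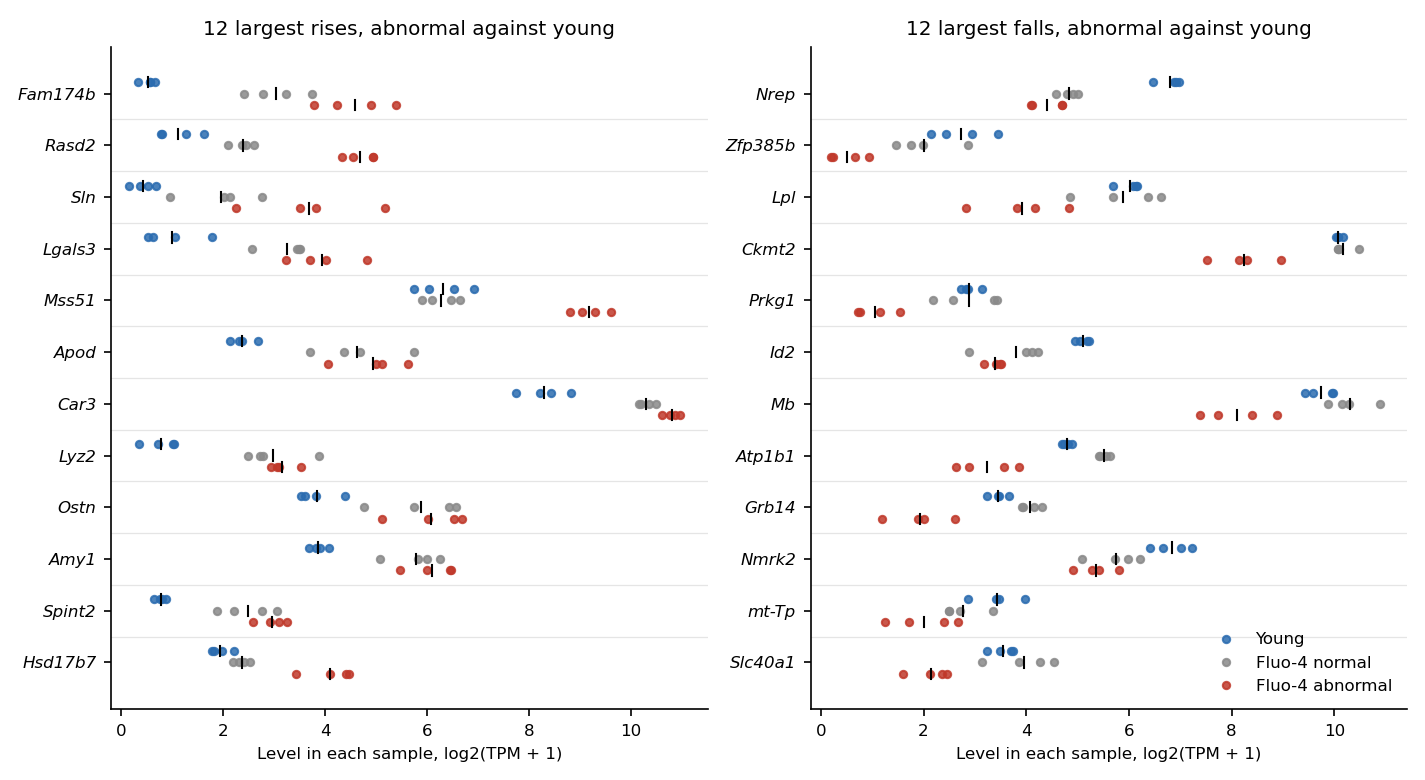
Level of the 12 largest rises (left) and the 12 largest falls (right) in each sample on a log2(TPM + 1) scale, with young samples in blue, Fluo-4 normal in grey and Fluo-4 abnormal in red, and a black bar at each group's mean. The 24 genes were chosen among those whose red and blue points do not overlap. The grey points lie with the blue ones for *Mss51*, *Ckmt2* and *Prkg1* and nearer the red ones for *Car3*, *Lyz2* and *Nrep*.

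The 12 largest falls came from 268 genes by the same limits and were *Nrep*, *Zfp385b*, *Lpl*, *Ckmt2*, *Prkg1*, *Id2*, *Mb*, *Atp1b1*, *Grb14*, *Nmrk2*, *mt-Tp* and *Slc40a1*. Of these, 8 were also lower in abnormal than in normal aged fibers, namely *Zfp385b*, *Lpl*, *Ckmt2*, *Prkg1*, *Mb*, *Atp1b1*, *Grb14* and *Slc40a1*, and these 8 were not shown to differ between normal aged and young fibers (adjusted p = 0.12 to 1). These falls included genes for energy transfer, oxygen and lipid supply, ion pumping and insulin signaling.

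*Ckmt2*, on chromosome 13 from 92001503 to 92025608, encodes the sarcomeric mitochondrial creatine kinase, which passes energy from ATP to creatine. It was at 1040, 1069, 1072 and 1142 TPM in young and at 496, 315, 183 and 283 TPM in abnormal fibers (log2 change -1.85, standard error 0.22, adjusted p = 0.00035). The young samples lay within a narrow band, well above the highest abnormal sample, and normal aged samples were with them at 1074 to 1421 TPM. *Mb* encodes myoglobin, the oxygen-binding protein of muscle. Its levels of 989, 686, 763 and 1009 TPM in young samples compared with 471, 337, 166 and 211 TPM in abnormal samples (log2 change -1.64, standard error 0.29, adjusted p = 0.0042, and 0.066 with the *Myh4* covariate). Normal aged fibers held 934 to 1884 TPM of *Mb*, the highest of the 3 groups by mean. *Lpl*, lipoprotein lipase, which frees fatty acids from circulating lipoproteins, fell from 64.3 ± 9.33 to 16.0 ± 8.94 TPM (SD, n = 4; adjusted p = 0.0065), with 27.9 to 98.2 TPM in normal aged fibers.

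*Atp1b1*, the beta 1 subunit of the sodium-potassium pump, was at 27.2, 25.8, 24.8 and 28.8 TPM in young and 13.5, 10.8, 5.22 and 6.39 TPM in abnormal samples (log2 change -1.55, standard error 0.21, adjusted p = 0.0007). Its normal aged samples were above both groups at 42.0 to 48.7 TPM. *Grb14*, an adaptor that inhibits the insulin receptor, had the same order of groups, with 10.0 ± 1.32 TPM in young, 3.03 ± 1.57 TPM in abnormal and 16.0 ± 2.20 TPM in normal aged fibers (SD, n = 4). So did *Slc40a1*, the iron exporter ferroportin, with means of 10.8, 3.51 and 15.5 TPM. For these 3 genes the normal aged and young fibers were not shown to differ (adjusted p = 0.12, 0.24 and 0.58). *Prkg1*, a cGMP-dependent protein kinase, fell from 5.60 to 7.76 TPM in young to 0.65 to 1.93 TPM in abnormal samples. *Zfp385b*, a zinc finger gene, ranked next to the largest fall on the log2(TPM + 1) scale, from 3.40 to 9.87 TPM to 0.147 to 0.929 TPM.

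*Nrep*, a neuronal and regeneration-related protein, had the largest fall on the log2(TPM + 1) scale. By the ratio of group means *Zfp385b* (0.0749) and *Prkg1* (0.175) fell further than *Nrep* (0.184). The young samples of *Nrep* were at 87.1 to 125 TPM and its abnormal samples at 16.0 to 25.1 TPM (log2 change -2.40, standard error 0.16, adjusted p = 6.3e-06). Normal aged fibers were nearly as low at 22.8 to 31.2 TPM, and their difference from abnormal fibers did not pass (adjusted p = 0.12) except with TMM-type factors (0.041). *Id2*, an inhibitor of basic helix-loop-helix factors such as MyoD, fell from 33.3 ± 3.07 to 9.58 ± 1.06 TPM (SD, n = 4; adjusted p = 0.00076) and was at 13.8 ± 5.08 TPM in normal aged fibers. *Nmrk2*, a muscle kinase that makes NAD precursors from nicotinamide riboside, fell from 84.2 to 148 TPM to 29.1 to 54.7 TPM (adjusted p = 0.0028, and 0.054 with the *Myh4* covariate). The mitochondrial tRNA gene *mt-Tp* fell from 10.2 to 3.33 TPM by means, but it lost its call under 6 of the 22 alternatives. Among them were the *Myh4* covariate (adjusted p = 0.25) and the fit with the GC and length trend removed (0.21). In the latter the log2 change was -0.71, against -1.42 with the deposited TPM. The call was also lost without abnormal replicate 2 (adjusted p = 0.06), young replicate 1 (0.055) or young replicate 4 (0.053).

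Exons of *Fam174b*, *Apod*, *Car3*, *Lyz2*, *Ostn*, *Ckmt2*, *Id2*, *Mb*, *Atp1b1*, *Grb14*, *Nmrk2* and *Slc40a1* overlap another gene on the other strand by at least 100 bp (*Apol6* for *Mb* and *Nme7* for *Atp1b1*), and those of *Amy1* overlap *Rnpc3* on its own strand. The libraries keep no strand, so reads of such pairs cannot be told apart.

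Genes of the ER and of vesicle transport rose broadly. Over 5 lists with 144 genes tested by limma, 46 rose and 0 fell, where 6.09% of all genes tested rose, and 128 of the 144 were higher. At an unadjusted p under 0.05 there were 81 higher and 1 lower, against 3323 (23%) of all genes in either direction. In the chaperone and disulfide isomerase list 13 of 31 genes rose (*Calr*, *Canx*, *Dnajb9*, *Fkbp2*, *Hsp90b1*, *Hspa5*, *Hyou1*, *Manf*, *P4hb*, *Pdia3*, *Pdia6*, *Ppib* and *Sdf2l1*). The median log2 change of this list was 0.43, which is 0.29 above that of all genes of at least 1 TPM. In the translocon and targeting list 9 of 24 rose (median 0.31, or 0.17 relative to expressed genes), among them signal recognition particle proteins and the translocon-associated proteins *Ssr1* and *Ssr3*. Of the glycosylation list 5 of 28 rose (*Alg6*, *Ddost*, *Rpn1*, *Rpn2* and *Stt3a*), 4 of which are subunits of the oligosaccharyltransferase that attaches sugar chains, while the list's median was 0.14, or 0.01 relative to expressed genes. The unfolded protein response and ERAD list, for sensing and degrading misfolded ER proteins, had 6 of 24 rising (median 0.30, relative 0.17), and the COPI and COPII vesicle list 13 of 37 (median 0.29, relative 0.15). Between abnormal and normal aged fibers 66 of the 144 genes differed, all higher in abnormal fibers (7.36% of all genes tested). The 66 became 25 with TMM-type factors, 38 with the GC and length trend removed, 32 without abnormal replicate 2 and 1 with the *Myh4* covariate. Between normal aged and young fibers 0 of the 144 differed by limma, with 11 at an unadjusted p under 0.05, 10 of them lower in normal aged fibers.

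*Sdf2l1*, a chaperone cofactor of the ER, had 6.24, 7.26, 7.78 and 7.34 TPM in young and 13.3, 17.2, 12.5 and 17.0 TPM in abnormal samples (log2 change 0.965, standard error 0.16, adjusted p = 0.0026). For this gene every abnormal sample exceeded every young one. *P4hb*, a protein disulfide isomerase, was at 69.0, 78.9, 72.2 and 67.6 TPM in young and 106, 151, 128 and 142 TPM in abnormal samples (log2 change 0.855, standard error 0.11, adjusted p = 0.0007). *Ssr3* rose from 107 ± 5.81 to 194 ± 24.7 TPM (SD, n = 4; adjusted p = 0.00036), *Ssr1* from 52.3 ± 3.58 to 83.5 ± 10.2 TPM and *Ddost* from 32.2 ± 1.66 to 55.1 ± 7.11 TPM. *Xbp1*, whose spliced form is a transcription factor of the unfolded protein response, rose from 70.0 ± 5.48 to 122 ± 13.8 TPM (SD, n = 4; log2 change 0.78, adjusted p = 0.00061). TPM values of the whole gene do not separate its spliced form. Among the vesicle genes, *Tmed4* rose from 48.7 ± 2.62 to 65.6 ± 3.14 TPM (adjusted p = 0.0027) and *Tmed9* from 59.3 ± 4.59 to 90.2 ± 16.2 TPM (adjusted p = 0.011, and 0.085 with TMM-type factors), both cargo receptors of the p24 family. *Ddost* shares exon bases with *Pink1* and *Xbp1* with *Ccdc117* on the other strand. With TMM-type factors 30 of the 144 genes rose (3.8% of all genes), 1 fell and the median was 0.16 against 0.02 for all expressed genes. Without young replicate 4, young replicate 1, abnormal replicate 2 or abnormal replicate 4 the 46 rises became 21, 23, 23 and 24. With the *Myh4* covariate 18 rose, 1 fell and 117 of the 144 were higher. The median was then 0.22 against 0.03 for genes of at least 1 TPM, and 0.296 without the covariate.

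The promoters of these genes were searched for the ER stress element, bound by ATF6 with NF-Y and a textbook feature of ER chaperone genes. The letters CCAAT, any 9 bases and CCACG, on either strand of the 250 bases before the transcription start, were found in 35 of 27025 mouse genes with a promoter in the RefSeq table (0.13%) and in 11 of the 119 ER and vesicle genes with an entry (9.24%). All 11 were higher in abnormal fibers and 6 rose (*Calr*, *Canx*, *Hsp90b1*, *Hspa5*, *Pdia6* and *Syvn1*), beside 128 higher and 46 rising of all 144 ER and vesicle genes and 6.09% of all genes rising. The calls of *Calr*, *Canx* and *Syvn1* were lost when any 1 of 6, 7 and 6 samples was left out (adjusted p at most 0.085, 0.11 and 0.12). Of the 111 mitochondrial energy genes with a promoter 0 held it. The 3 promoters with their genes' levels are shown because these genes encode the core ER folding machinery. Sequences are from RefSeq on GRCm38.p6, a different build from the GRCm39 coordinates used elsewhere, and capitals mark the element. *Hspa5* (chr2:34771840-34772089, plus strand) encodes the Hsp70 chaperone BiP, *Hsp90b1* (chr10:86705445-86705694, minus strand) the Hsp90 chaperone GRP94, with 2 elements, and *Pdia6* (chr12:17266339-17266588, plus strand) a disulfide isomerase.
Hspa5: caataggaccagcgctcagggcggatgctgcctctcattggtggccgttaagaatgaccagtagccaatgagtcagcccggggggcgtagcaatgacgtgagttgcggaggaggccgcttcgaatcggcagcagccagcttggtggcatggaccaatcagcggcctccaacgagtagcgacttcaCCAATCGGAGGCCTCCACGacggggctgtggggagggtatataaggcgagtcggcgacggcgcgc
Hsp90b1: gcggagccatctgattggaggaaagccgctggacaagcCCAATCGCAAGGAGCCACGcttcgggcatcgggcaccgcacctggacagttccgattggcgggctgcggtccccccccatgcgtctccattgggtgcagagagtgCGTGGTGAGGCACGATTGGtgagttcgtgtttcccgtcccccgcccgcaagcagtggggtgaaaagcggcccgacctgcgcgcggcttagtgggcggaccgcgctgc
Pdia6: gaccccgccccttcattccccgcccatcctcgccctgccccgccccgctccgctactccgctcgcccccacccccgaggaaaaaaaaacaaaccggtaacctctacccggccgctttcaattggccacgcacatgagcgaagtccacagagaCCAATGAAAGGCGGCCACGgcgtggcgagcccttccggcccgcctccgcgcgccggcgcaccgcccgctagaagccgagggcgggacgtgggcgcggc

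*Hspa5* had 123, 164, 152 and 134 TPM in young and 224, 233, 207 and 260 TPM in abnormal samples (log2 change 0.69, standard error 0.13, adjusted p = 0.0065 from limma). *Hsp90b1* had 24.8, 30.3, 30.3 and 23.6 TPM in young and 37.6, 49.5, 41.6 and 40.9 TPM in abnormal samples (log2 change 0.62, adjusted p = 0.012, and 0.051 without young replicate 4). *Pdia6* had 28.7, 37.3, 35.6 and 29.4 TPM against 52.9, 54.3, 38.1 and 57.0 TPM (log2 change 0.61, adjusted p = 0.017, and at most 0.065 without abnormal replicate 2 or 4 or young replicate 1 or 4). In the normal aged fibers the means of these genes were 142, 27.5 and 31.5 TPM, close to the young means of 143, 27.3 and 32.7 TPM. With the *Myh4* share as a covariate the adjusted p-values were 0.088, 0.21 and 0.054. A match is a description of the sequence and does not show binding.

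**Figure D3:**
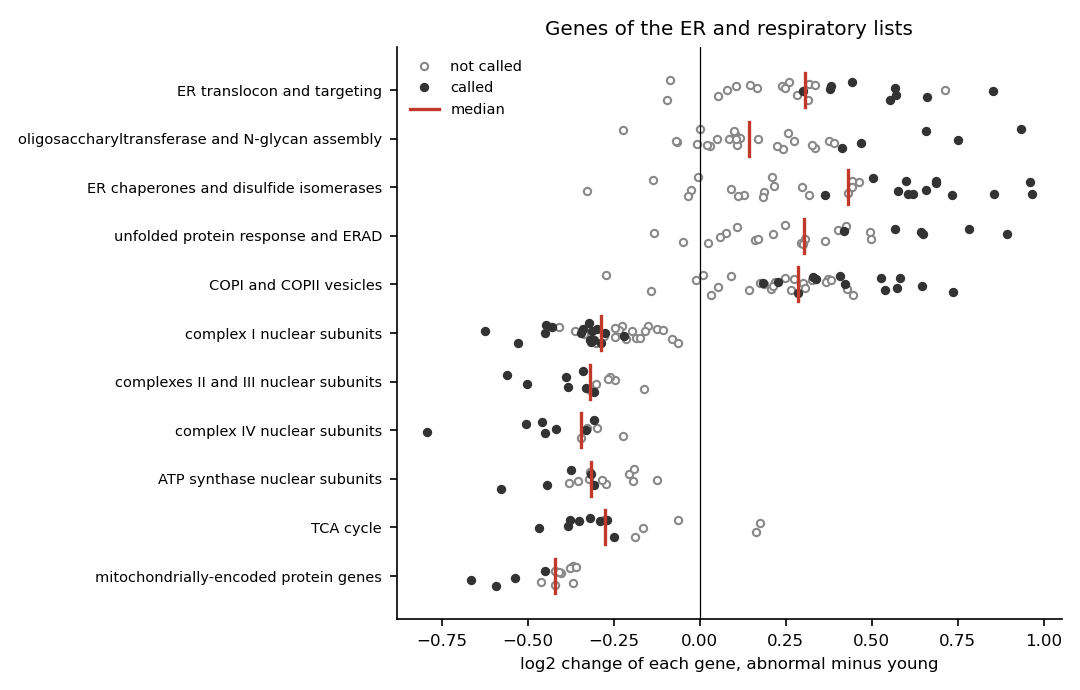
Log2 change (abnormal minus young) of each gene in 5 ER and vesicle lists and 6 respiratory and TCA cycle lists, 1 point per gene. Filled points passed the adjusted threshold, open points did not, and the red bar is the list's median, which runs from 0.14 to 0.43 in the ER lists and from -0.42 to -0.27 in the respiratory lists.

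Respiratory genes moved the other way. Of 103 genes for respiratory complexes, ATP synthase and the TCA cycle, nuclear and mitochondrial, 47 fell and 0 rose by limma, where 2.41% of all genes tested fell, and 101 of the 103 were lower. At an unadjusted p under 0.05 there were 89 lower and 0 higher. Falls were spread over complex I (16 of 37 nuclear genes), complexes II and III (7 of 13), complex IV (7 of 11), ATP synthase (5 of 15) and the TCA cycle (8 of 14), besides 4 of 13 mitochondrially-encoded protein genes. The genes were abundant and the changes moderate. *Cox7a1*, a muscle subunit of cytochrome oxidase, fell the most among complex IV genes, from 2250, 2117, 1904 and 2413 TPM in young to 1615, 1199, 1035 and 1209 TPM in abnormal samples (log2 change -0.79, standard error 0.13, adjusted p = 0.0032). *Ndufa8* of complex I was at 456, 448, 447 and 485 TPM in young and 317, 311, 263 and 302 TPM in abnormal samples (log2 change -0.62, adjusted p = 0.00036). *Sdhb* of complex II (738 ± 58.2 against 501 ± 49.4 TPM), *Atp5d* of ATP synthase (841 ± 29.8 against 676 ± 43.5 TPM) and *Idh3b* of the TCA cycle (529 ± 28.5 against 382 ± 18.5 TPM) also fell (SD, n = 4, young first).

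The 13 mitochondrially-encoded protein genes together held 7.05 ± 0.30% of the TPM in young and 5.23 ± 0.98% in abnormal samples (SD, n = 4). *mt-Nd1* fell from 6403 to 7047 TPM in young to 3566 to 5203 TPM in abnormal samples (log2 change -0.59, adjusted p = 0.014, and 0.082 with the *Myh4* covariate). *mt-Co2* (adjusted p = 0.015) has near-identical nuclear copies that could share its reads and lost its call without abnormal replicate 4, young replicate 3 or young replicate 4 (adjusted p = 0.051 to 0.053), and *Atp5g1* (log2 change -0.58) has a copy as well. Between abnormal and normal aged fibers 80 of the 103 genes differed, all lower (1.99% of all genes tested). The 80 became 92 with TMM-type factors, 52 without abnormal replicate 3 and 0 with the *Myh4* covariate. Between normal aged and young fibers 0 differed by limma, with 14 at an unadjusted p under 0.05, all higher in normal aged fibers. Without single samples the 47 falls became 20 (young replicate 4), 25 (young replicate 1), 26 (abnormal replicate 4), 29 (abnormal replicate 3) and 31 (abnormal replicate 2), while 101 of the 103 were lower in each leave-one-out fit. With the *Myh4* covariate 9 fell and 94 of the 103 were lower, with a median of -0.215 against -0.319 without it.

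Of 78 mitochondrial ribosomal protein genes 11 fell (14.1%, against 2.41% of all genes) with a median of -0.16, while 22 fell with TMM-type factors (median -0.29), 27 with the GC and length trend removed and 5 with the *Myh4* covariate. An example is *Mrps36* from 213 ± 7.78 to 144 ± 13.2 TPM (SD, n = 4; adjusted p = 0.00097). Of 34 protein import genes 2 fell, *Timm21* and *Timm44*, and both calls were lost when any 1 sample other than abnormal replicate 1 was left out, with adjusted p-values up to 0.25 over all alternatives. In fatty acid uptake and oxidation 3 of 23 fell, and 9 with TMM-type factors, while 15 of the 23 differed between abnormal and normal aged fibers. The 3 were *Acaa2* (130 ± 11.5 to 94.4 ± 12.9 TPM), *Hadh* (adjusted p = 0.045) and *Fabp3*, the fatty acid-binding protein of heart and muscle (477 ± 82.4 to 306 ± 45.1 TPM, SD, n = 4), whose call was lost without abnormal replicate 2 or 4 or young replicate 3 or 4 (adjusted p = 0.053 to 0.06).

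Regulators of energy metabolism were mixed. Besides *Ckmt2* and the rise of *Mss51*, *Perm1*, *Esrra* and *Slc25a4* fell among 17 genes. *Perm1*, a muscle regulator induced by PGC-1 and estrogen-related receptors, is at 156300325 to 156314305 of chromosome 4. Its level was 45.1, 57.1, 54.2 and 49.9 TPM in young and 31.0, 24.0, 22.2 and 18.2 TPM in abnormal samples (log2 change -1.10, standard error 0.15, adjusted p = 0.00094), and at 42.5 to 65.9 TPM in normal aged samples. Its exons overlap *Klhl17* and *Plekhn1* on the other strand. *Slc25a4*, the muscle ADP/ATP carrier, fell from 3022 to 3274 TPM to 2265 to 2525 TPM (adjusted p = 0.0021), and *Esrra*, the estrogen-related receptor alpha, from 27.5 to 20.4 TPM by means (adjusted p = 0.015, and 0.054 without young replicate 4). *Ppargc1a*, which encodes the coactivator PGC-1 alpha, was at 14.5 ± 2.61 TPM in young and 13.7 ± 2.49 TPM in abnormal fibers (SD, n = 4; adjusted p = 0.84). *Ppargc1a*, *Slc25a4* and *Esrra* were chosen after their values were seen.

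**Figure D4:**
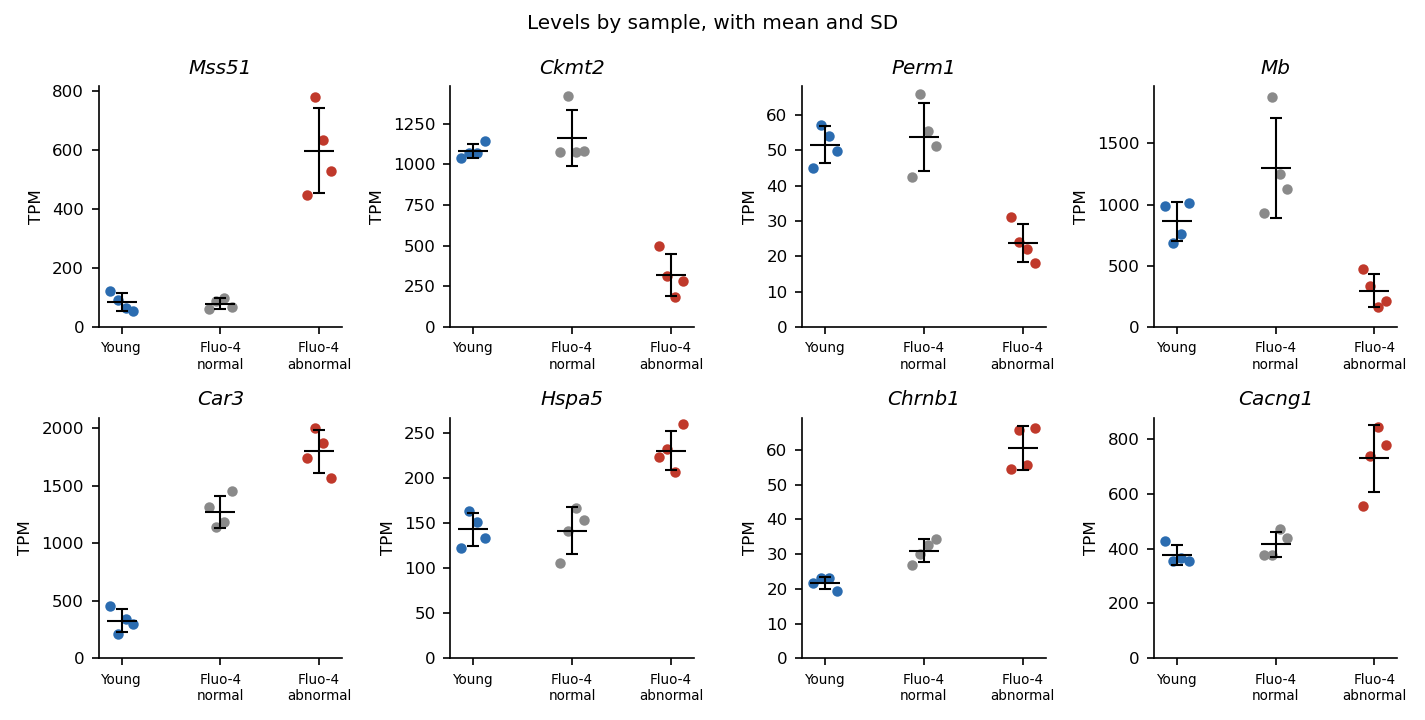
TPM of 8 genes in each of the 12 samples, with the mean (bar) and SD (whiskers) of each group of 4. The abnormal samples stand apart from both other groups for *Mss51*, *Ckmt2*, *Perm1*, *Mb*, *Hspa5*, *Chrnb1* and *Cacng1*, and for *Car3* the normal aged samples (1139 to 1452 TPM) lie between young and abnormal.

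Of 18 glycolysis and lactate genes *Pfkfb4* rose and *Pgam2* fell, and both calls were lost with TMM-type factors (adjusted p = 0.056 for each) and without 6 or 7 of the 8 single samples (all but abnormal replicate 3 and young replicate 3 for *Pfkfb4*, all but abnormal replicate 1 for *Pgam2*). Among 17 glycogen genes 2 rose, *Stbd1*, a glycogen-binding protein, from 34.4 ± 0.14 to 57.0 ± 9.10 TPM (SD, n = 4; log2 change 0.70, adjusted p = 0.0054) and *Ppp1r3c*, a targeting subunit of protein phosphatase 1 for glycogen, from 72.3 ± 18.8 to 118 ± 12.8 TPM (adjusted p = 0.013, and 0.057 without abnormal replicate 2 or 0.052 without young replicate 4). In the insulin and glucose uptake list 15 of 18 genes were higher, beside 9574 of all 14426 genes tested, with a median of 0.30, or 0.165 relative to expressed genes. The median was 0.21 with TMM-type factors, 0.12 with the GC and length trend removed and 0.03 with the *Myh4* covariate. By limma 10 had an unadjusted p under 0.05 (23% of all genes), and 3 passed (16.7%, against 8.51% of all genes and 11.9% of genes of at least 1 TPM). *Akt2*, the main Akt kinase of glucose uptake, and *Pik3r1* rose while *Grb14* fell. *Akt2* was at 62.1 to 77.3 TPM in young and 83.0 to 95.1 TPM in abnormal samples (adjusted p = 0.0092, and 0.14 with the *Myh4* covariate). Of 19 branched-chain amino acid genes 1 fell, *Bckdk*, the kinase that inhibits branched-chain keto acid oxidation, from 165 ± 6.46 to 122 ± 6.8 TPM (SD, n = 4; adjusted p = 0.0035). The medians of the glycogen list (0.06) and the branched-chain list (0.07) turned negative with TMM-type factors (-0.07 and -0.06).

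NAD and polyamine genes moved in both directions. Of 20 genes 3 rose and 4 fell. *Oaz2*, an antizyme that lowers ornithine decarboxylase activity, rose from 138 to 165 TPM in young to 215 to 234 TPM in abnormal samples (log2 change 0.55, standard error 0.075, adjusted p = 0.00083). *Odc1*, ornithine decarboxylase itself, rose as well, with 67.5, 110, 113 and 55.4 TPM in young and 158, 184, 136 and 195 TPM in abnormal samples (log2 change 1.00, adjusted p = 0.0097), although 3 near-identical copies could share its reads. *Smox*, spermine oxidase, fell from 195 to 106 TPM by means (adjusted p = 0.021, and at most 0.073 without abnormal replicate 2, 3 or 4 or young replicate 2 or 3). Its normal aged samples were lower still at 62.3 to 70.2 TPM, below the abnormal samples at 99.4 to 113 TPM (adjusted p = 0.049, and 0.21 with TMM-type factors). *Sirt3*, the mitochondrial NAD-dependent deacetylase, fell from 21.5 to 13.7 TPM (adjusted p = 0.011). *Odc1*, *Smox* and *Sirt3* were chosen after their values were seen.

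Among 27 SR calcium handling genes 4 rose (*Cacng1*, *Itpr1*, *Jph1* and *Sln*) and 1 fell (*Sypl2*), with a median of 0.13, near that of expressed genes, and of -0.01 with TMM-type factors. *Cacng1*, the gamma subunit of the muscle voltage-gated Ca2+ channel, was at 429, 353, 364 and 355 TPM in young and 555, 736, 843 and 779 TPM in abnormal samples (log2 change 0.94, standard error 0.12, adjusted p = 0.00059). *Itpr1*, an IP3-gated Ca2+ release channel of the ER, was at 3.71 to 6.19 TPM in young and 7.89 to 10.8 TPM in abnormal samples (adjusted p = 0.0047). The genes of the release channel *Ryr1* (log2 change 0.30, adjusted p = 0.44), the voltage sensor *Cacna1s* (0.35, adjusted p = 0.14) and the SERCA pump *Atp2a1* (0.18, adjusted p = 0.47) did not pass. *Casq1*, the Ca2+-binding protein calsequestrin of the SR lumen, was at 3522 to 3867 TPM in young, 3034 to 3443 TPM in abnormal and 2154 to 2458 TPM in normal aged samples. The abnormal samples were thus below young ones without overlap but did not pass (log2 change -0.18, adjusted p = 0.15), and they exceeded normal aged samples (0.50, adjusted p = 0.0017, and 0.14 with TMM-type factors). *Sypl2*, a triad membrane protein, showed the same order with means of 144, 120 and 99.0 TPM, and its fall (adjusted p = 0.021) was lost without abnormal replicate 3 or 4 or young replicate 1, 2 or 3 (at most 0.057). *Jph1*, a junctional protein of SR and T-tubules, rose from 80.7 to 108 TPM by means (adjusted p = 0.033) and lost its call when any 1 of 6 samples was left out (all but abnormal replicate 1 and young replicate 2, at most 0.11). Apart from *Cacng1* and *Sln*, these genes were chosen after their values were seen.

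In the list of sarcolemmal channels and pumps 2 of 24 rose (*Abcc8* and *Fxyd6*) and 3 fell (*Aqp4*, *Atp1b1* and *Kcnc4*), against 6.09% and 2.41% of all genes, and with TMM-type factors 2 rose and 7 fell (3.8% and 4.32% of all genes). *Aqp4*, the water channel of fast fibers, was at 22.7, 14.7, 20.7 and 19.2 TPM in young and 10.6, 5.35, 5.84 and 6.58 TPM in abnormal samples (log2 change -1.36, standard error 0.18, adjusted p = 0.0007), and at 19.8 to 25.4 TPM in normal aged samples. In the denervation and neuromuscular junction list 4 of 23 genes rose (17.4%, against 6.09% of all genes) and 0 fell. They were *Chrna1*, *Chrnb1*, *Musk* and *Sln*, the last of which is also counted among the SR genes. *Chrnb1*, the beta subunit of the acetylcholine receptor on chromosome 11 from 69674860 to 69686773, was at 21.6, 23, 23.1 and 19.4 TPM in young and 54.5, 65.8, 55.8 and 66.4 TPM in abnormal samples (log2 change 1.43, standard error 0.10, adjusted p = 6.3e-06). The normal aged samples lay between them at 26.9 to 34.4 TPM and differed from both (adjusted p = 0.034 from young and 0.00049 from abnormal fibers). *Musk*, the receptor kinase that clusters acetylcholine receptors, was at 1.73 to 4.06 TPM in young and 9.17 to 12.3 TPM in abnormal samples (adjusted p = 0.00083), and at 2.45 to 3.74 TPM in normal aged samples. *Chrna1*, the alpha subunit, rose from 8.19 to 12.1 TPM by means (adjusted p = 0.028) but lost its call when any 1 sample other than abnormal replicate 1 was left out (at most 0.077) and with TMM-type factors (0.064), and it was chosen after its values were seen. The other 19 genes of this list did not pass. Schwann cell markers, which come with nerve endings, summed to 3.56 to 5.52 TPM in young and 6.69 to 13.6 TPM in abnormal samples, and *Mbp* and *Sox10* among the 5 rose. Their part in the junction genes was not tested.

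The myosin heavy chain genes did not pass between abnormal and young fibers. *Myh4* was at 9586, 10381, 10312 and 8311 TPM in young and 10770, 14714, 15574 and 10992 TPM in abnormal samples, without overlap (log2 change 0.42, adjusted p = 0.13). *Myh1*, of type IIx fibers, was at 147 to 262 TPM in young and 44.3 to 147 TPM in abnormal samples (log2 change -1.55, standard error 0.63, adjusted p = 0.15), and *Myh2* (type IIa) and *Myh7* (type I) were low in both groups. Among 14 fast contractile genes 4 rose, *Tpm1*, *Mybpc2*, *Actn3* and *Mybph*. *Mybpc2*, the fast myosin-binding protein C, rose from 1938 ± 86.3 to 2850 ± 278 TPM (SD, n = 4; adjusted p = 0.0012) and *Tpm1*, alpha-tropomyosin, from 15506 ± 950 to 23002 ± 2044 TPM (adjusted p = 0.0062, and 0.17 with TMM-type factors). *Mybph*, a further myosin-binding protein, had the largest rise of this list (46.0 to 182 TPM by means, log2 change 1.86, adjusted p = 0.027) but lost its call without abnormal replicate 1, 3 or 4 or young replicate 2, 3 or 4 (at most 0.095). It was chosen after its values were seen. The median of the fast list was 0.135, and -0.005 with TMM-type factors. Of 11 slow contractile genes 1 rose, *Mybpc1*, and it lost its call under 13 of the 22 alternatives, among them when any 1 sample other than abnormal replicate 1 was left out.

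Of 23 Z-disc, titin and stretch-response genes 7 rose and 1 fell, against 6.09% and 2.41% of all genes, with a median of 0.14. With TMM-type factors 6 rose and 2 fell (median 0.001), and with the *Myh4* covariate 2 rose and 3 fell (median -0.06). There were 5 rises when any 1 sample other than abnormal replicate 1 was left out. *Ldb3*, a Z-disc protein that binds alpha-actinin, was at 973 to 1012 TPM in young and 1342 to 1473 TPM in abnormal samples (log2 change 0.51, standard error 0.065, adjusted p = 0.00055). *Cavin4*, a muscle protein of caveolae and T-tubules, rose from 64.4 ± 2.02 to 106 ± 10.8 TPM (SD, n = 4; adjusted p = 0.00069). *Ankrd1*, a stretch-induced titin-binding repressor, rose from 10.3 to 31.2 TPM by means (adjusted p = 0.0026) and was at 28.2 TPM in normal aged fibers, and it was chosen after its values were seen. The gene of this list that fell with the deposited TPM was *Actn2*, alpha-actinin 2 of the Z-disc, from 166 to 92.7 TPM by means (adjusted p = 0.015). In the dystrophin and membrane repair list 4 of 31 rose (*Bin1*, *Cast*, *Dtna* and *Dysf*), or 12.9% against 6.09% of all genes and 806 of the 9456 genes of at least 1 TPM. *Bin1*, amphiphysin 2, which shapes T-tubules, rose from 345 to 410 TPM in young to 560 to 588 TPM in abnormal samples (log2 change 0.58, standard error 0.07, adjusted p = 0.00036).

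Of 47 proteasome subunits 16 rose and 1 fell (6.09% and 2.41% of all genes), with a median of 0.25, or 0.12 relative to expressed genes. *Psmd4*, the ubiquitin receptor of the regulatory particle, was at 181 to 190 TPM in young and 220 to 317 TPM in abnormal samples (log2 change 0.58, adjusted p = 0.0078). With TMM-type factors 3 subunits rose (3.8% of all genes), 1 fell and the median was 0.12, and the 16 rises became 4 with the *Myh4* covariate and 7 to 10 without abnormal replicate 2 or 4 or young replicate 1, 3 or 4. Among 42 autophagy and lysosome genes 8 rose (19%, against 6.09% of all genes) and 0 fell at an adjusted p under 0.05. The rises became 3 to 5 without abnormal replicate 2, 3 or 4 or young replicate 1, 3 or 4. In this list 40 were higher, beside 9574 of all 14426 genes tested. With TMM-type factors 32 were higher and 5 rose, and with the *Myh4* covariate 32 were higher and 2 rose. The 8 were *Ctsz*, *Gabarapl1*, *Hexa*, *Map1lc3a*, *Map1lc3b*, *Nbr1*, *Sqstm1* and *Tfeb*. *Map1lc3b*, the LC3 protein of autophagosomes, was at 238, 246, 244 and 243 TPM in young and 303, 333, 335 and 348 TPM in abnormal samples (log2 change 0.44, standard error 0.06, adjusted p = 0.0012). Of 23 atrophy genes 4 rose (*Fbxo21*, *Mstn*, *Nedd4* and *Ubb*), which became 1 without abnormal replicate 2 or young replicate 4 and 2 without abnormal replicate 4 or young replicate 1 or 2. The list's median of 0.31, or 0.175 relative to expressed genes, was -0.04 with the *Myh4* covariate. *Ubb*, a polyubiquitin gene, rose from 1868 ± 24.2 to 2719 ± 248 TPM (SD, n = 4; adjusted p = 0.0018), while *Mstn*, myostatin, lost its call when any 1 of 6 samples was left out (at most 0.12) and *Nedd4* lost its call without abnormal replicate 2 or young replicate 4 (adjusted p = 0.061 and 0.065).

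Cytosolic ribosomal protein genes showed 17 rises and 1 fall among 85, but their median of 0.14 equalled that of expressed genes. With TMM-type factors 2 rose and the median was -0.003, and the 17 rises became 2 to 8 when any 1 sample other than abnormal replicate 1 was left out. The fall was *Rpl3l*, the muscle form of *Rpl3*, from 369 to 379 TPM in young to 302 to 320 TPM in abnormal samples (log2 change -0.26, standard error 0.05, adjusted p = 0.007), and *Rpl12* rose from 16.2 ± 1.22 to 25.1 ± 2.87 TPM (SD, n = 4; adjusted p = 0.0035).

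Of 23 heat shock genes 6 rose and 1 fell, with 4 rises when any 1 sample other than abnormal replicate 2 was left out. *Hspb7*, a small heat shock protein of muscle that binds filamin, was at 34.7, 35.4, 33.9 and 37.1 TPM in young and 90.6, 94.9, 94.4 and 147 TPM in abnormal samples (log2 change 1.54, standard error 0.17, adjusted p = 0.0003). Its normal aged samples were as high, at 66.8 to 117 TPM, and were not shown to differ from the abnormal ones (adjusted p = 0.66). *Hspb8*, a partner of the cochaperone BAG3, showed another pattern. It rose from 186 ± 33.1 to 304 ± 25.5 TPM (SD, n = 4; adjusted p = 0.0067, and 0.12 with the *Myh4* covariate) and was at 189 ± 31.6 TPM in normal aged fibers, which the abnormal fibers exceeded (adjusted p = 0.0089). With the *Myh4* share as a covariate 1 of the 23 rose.

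Antioxidant enzymes changed in both directions. *Srxn1*, sulfiredoxin, was at 11.1 to 12.9 TPM in young and 20.6 to 35 TPM in abnormal samples (log2 change 1.23, standard error 0.16, adjusted p = 0.00053), and *Nqo1*, a quinone reductase, at 22.2 to 23.1 TPM and 36.2 to 54.3 TPM (0.89, adjusted p = 0.0023). In this list of 30 genes, which also holds metallothioneins, *Gsr*, *Gpx4* and *Mt2* rose too, with 5 rises in all, and the mitochondrial antioxidants *Sod2* and *Prdx3* fell. Of 25 cell-cycle inhibitors and p53 targets *Eda2r*, *Cdkn1a* and *Cdkn2c* rose. *Eda2r*, a receptor of the TNF family and p53 target on the X chromosome from 96320270 to 96420847, was at 2.28, 2.28, 2.44 and 2.12 TPM in young and 8.78, 8.58, 15.4 and 14.1 TPM in abnormal samples (log2 change 1.91, standard error 0.32, adjusted p = 0.0033, and 0.064 with the *Myh4* covariate). *Cdkn2c*, the CDK4/6 inhibitor p18, rose from 7.98 ± 1.17 to 13.6 ± 1.25 TPM (SD, n = 4; adjusted p = 0.0049). In the integrated stress response list 3 of 25 rose (*Slc7a5*, *Mthfd2* and *Atf3*). *Slc7a5*, an amino acid transporter, rose from 0.66 ± 0.11 to 2.60 ± 0.57 TPM (SD, n = 4; adjusted p = 0.00083), and the calls of *Mthfd2* and *Atf3* were lost without several single samples (adjusted p up to 0.071 and 0.12).

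Of 32 MHC class I and interferon-induced genes 4 rose (*B2m*, *H2-D1*, *H2-K1* and *Ifi27*) and *Gbp7* fell. *H2-K1*, a class I heavy chain, was at 21, 30, 25.6 and 22.8 TPM in young and 55.0, 64.6, 49.7 and 67.2 TPM in abnormal samples (log2 change 1.22, standard error 0.16, adjusted p = 0.00066). Normal aged fibers were at 37.3 to 62.2 TPM and were not shown to differ from abnormal fibers (adjusted p = 0.32). The immune marker sum, given above, was also higher in both aged groups and its part in this result was not tested.

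Among regulators, 3 of 19 clock genes rose (15.8%, against 6.09% of all genes). *Cry2*, a repressor of the clock, was at 15.5 to 20.7 TPM in young and 33.0 to 48.9 TPM in abnormal samples (log2 change 1.06, standard error 0.20, adjusted p = 0.0054, and 0.11 with the *Myh4* covariate). *Rora*, a nuclear receptor of the clock, rose (adjusted p = 0.032) but lost its call when any 1 sample other than abnormal replicate 1 was left out, and *Per1* rose as well. Per the study's methods, mice other than those of its evening experiments were killed in daytime. Of 30 fiber-type and myogenic factors *Eya4* and *Mef2c* rose, and *Id2* and *Prox1* fell (13.3% in either direction, against 8.51% of all genes and 11.9% of genes of at least 1 TPM). *Prox1*, a slow-fiber homeobox factor, was near the lower end of detection at 0.15 to 0.237 TPM in young and 0 to 0.069 TPM in abnormal samples. Of 34 collagen and matrix genes 2 rose (5.88%), which is near the 6.09% of all genes. *Timp2*, an inhibitor of matrix metalloproteinases, rose from 15.2 ± 1.69 to 25.8 ± 4.4 TPM (SD, n = 4; adjusted p = 0.0094, and 0.16 with the *Myh4* covariate), and *Sparc*, a matrix glycoprotein, lost its call under 12 of the 22 alternatives.

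**Figure D5:**
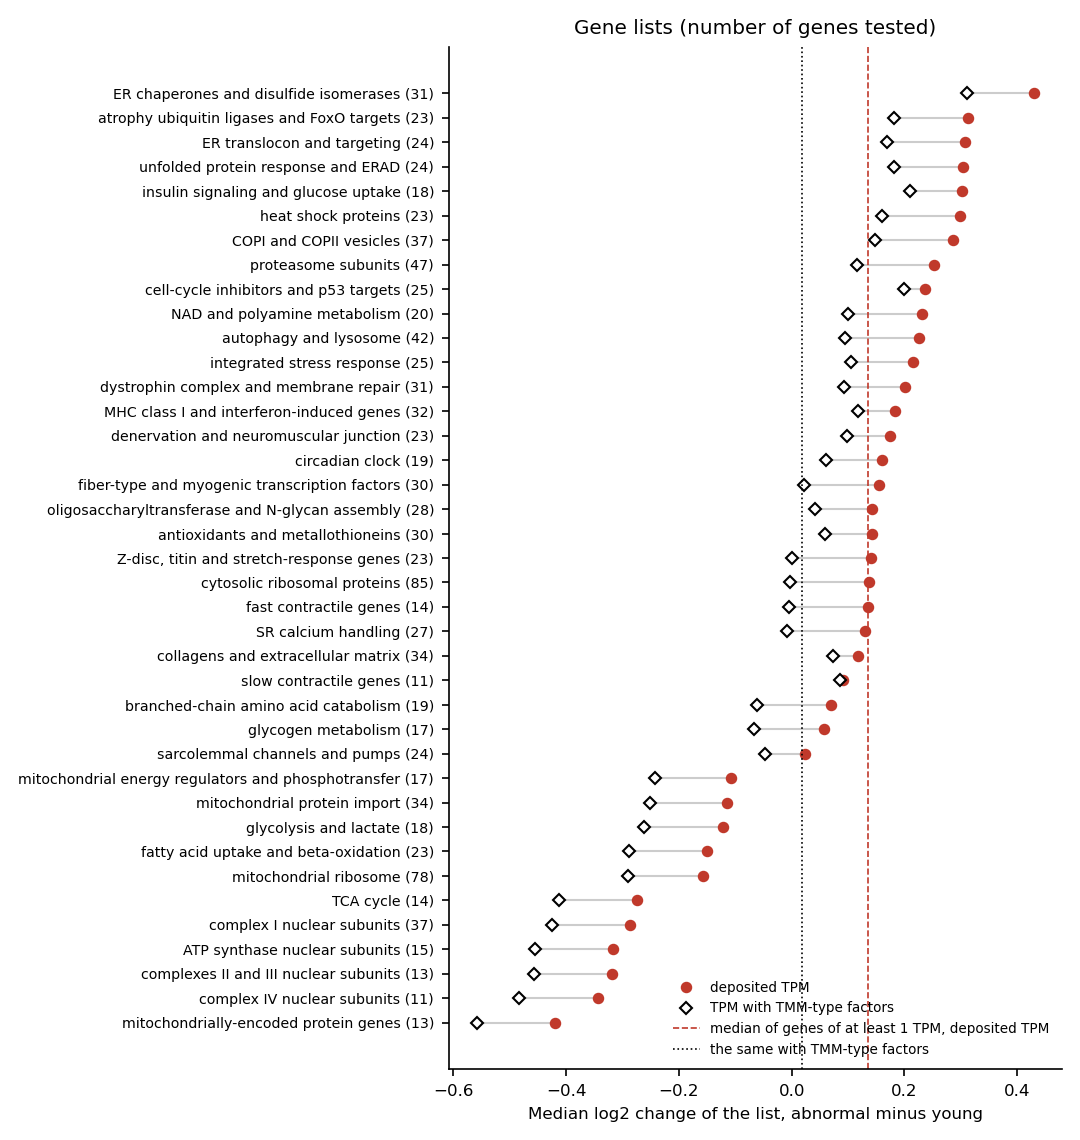
Median log2 change (abnormal minus young) of the 39 gene lists with the deposited TPM (red circles) and with TMM-type factors (open diamonds), and the medians of genes of at least 1 TPM as vertical lines at 0.14 and 0.02. ER chaperones lie highest (0.43) and mitochondrially-encoded protein genes lowest (-0.42), and the lists for glycogen, branched-chain amino acids, channels, SR calcium handling, fast contractile genes and cytosolic ribosomal proteins change sign with the factors.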

How the data were processed

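RNA of EDL single fibers was sequenced in 12 samples, 4 each of young, Fluo-4 normal and Fluo-4 abnormal fibers. Per the labels and the study's methods, the authors made SMART-Seq v4 libraries, which keep no strand, from 10 ng RNA, aligned reads with DRAGEN 4.3 to GRCm39 (mm39) and deposited TPM per gene. The 55487 lines of each file were summed to 55367 symbols. Protein-coding and mitochondrially-encoded genes with a mean of at least 0.02 TPM in a group, 14426 in all, were fitted as log2(TPM + 1) over the 12 samples with limma 3.58.1 (R 4.3.3, trend on mean level), and p-values were adjusted by Benjamini-Hochberg over all of them. A fold change on this scale understates that of low genes. TPM keeps no read depth, so no counting interval is given. Gene coordinates are from GENCODE on GRCm39, and near-identical copies were looked for with BLAST 2.17.0.

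The named genes were the 12 largest rises and falls without overlap that reached 5 TPM, up to 2 genes of each of 39 lists, the myosin heavy chains and *Perm1*. The members and lists were chosen with earlier results of these data known. In data simulated for the abnormal against young comparison on 14426 genes, 200 genes of about 5 TPM or more in young fibers were changed, with independent noise. Of those changed 2-fold 87% were recovered, and of those changed 4-fold 98%. Changes of lower genes and changes under 2-fold were not simulated. Same-numbered abnormal and normal aged samples deviated together (r = 0.307 to 0.442 over 5924 genes, against -0.367 to 0.239 for different numbers), so for this contrast a fit that pairs them is quoted where it changes a call. The labels do not say what a number stands for. Alternatives were other scalings, filters, pseudocount, gene classes, sample sets, weights, blocks, covariates and leaving out each sample.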

Additional observations from a re-analysis of the deposited data

Results flagged for a closer look

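Among 198 sets of 4 samples checked (99 genes in the abnormal and young groups), 11 held 1 sample far from the other 3, and chance alone gives about 1 in 20. In the abnormal fibers *Fabp3* was at 373 TPM in replicate 1 against 280 to 286 in the others, and *Stbd1* at 70.6 TPM in replicate 2 against 51.2 to 53.5. *Cavin4* stood at 122 TPM in abnormal replicate 2 against 98.3 to 102, and *Myh2* at 10.6 TPM in the same sample against 3.74 to 4.26. Abnormal replicate 4 had the lowest *Akt2*, 83 TPM against 94.4 to 95.1, and the highest *Hspb7*, 147 TPM against 90.6 to 94.9. In the young fibers *Cacng1* was at 429 TPM in replicate 1 against 353 to 364, and *Xbp1* at 78.2 TPM in replicate 2 against 67 to 67.6. Young replicate 3 had *Bcat2* at 66.2 TPM against 55.5 to 56.7 and *Myh2* at 17.2 TPM against 5.87 to 6.91, and young replicate 4 had *Nedd4* at 62 TPM against 74 to 74.7.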

How the results depend on the processing

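The balance of higher and lower genes turned, from 879 against 348 to 548 against 623 with TMM-type factors and 556 against 784 with the GC and length trend removed. The 1227 genes that changed became 627 with *Myh4* share as a covariate, or 576 to 1192 without 1 sample. The 879 higher genes became 548 with TMM-type factors, 331 with the *Myh4* share and 556 with the GC and length trend removed, and were 378 to 867 without 1 sample (lowest without young replicate 4). The 348 lower genes became 623 with TMM-type factors, 784 with the GC and length trend removed and 958 with a replicate block added to that, and were 198 to 325 without 1 sample (lowest without young replicate 4). The cause was not tested. Of the 1227 genes, 891 also passed with TMM-type factors and 412 with the *Myh4* share. Of the 99 named genes, 29 lost their call with the *Myh4* share, 6 with TMM-type factors, 6 with the GC and length trend removed and 1 to 13 without 1 sample. The medians of 6 of the 39 lists changed sign with TMM-type factors, 9 with the *Myh4* share and 7 with the GC and length trend removed.

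For abnormal and young samples of one number r was 0.011, 0.204, 0.16 and 0.087, against -0.194 to 0.232 for different numbers. These values were each positive but within the range of different numbers, so they do not settle whether a number links the groups. With a replicate block 1652 genes passed, and *Myh4* was among them (adjusted p = 0.032). TPM without read counts leaves the precision of low genes unknown.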

Other observations

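Outside the protein-coding genes, 7941 further annotated genes were tested together with them, and 88 were higher and 56 lower in abnormal than in young fibers. The genes below were among those with the largest changes and were chosen after their values were seen. The long non-coding RNA *2310075C17Rik* was at 53.2, 40.3, 30.9 and 49.9 TPM in young and 10.7, 6.71, 2.44 and 5.14 TPM in abnormal samples (log2 change -2.72, adjusted p = 0.00062 from limma), and its normal aged mean of 34 TPM was near the young mean of 43.6 TPM. *Gm47708* fell from 8.61 to 1 TPM and *Gm15543* from 15.2 to 3.43 TPM by means. *Gm29521* rose from 12.5 to 48.1 TPM and was at 49.4 TPM in normal aged fibers, so both aged groups had like levels. *Gm10800* rose from 0.063 to 8.15 TPM by means (log2 change 3.06, adjusted p = 0.00105), with 3.09 TPM in normal aged fibers. *Gm48584* rose from 11.3 to 52.8 TPM, with 30.3 TPM in normal aged fibers.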
